A study of Mus musculus with 10 samples.

Results

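The expression of 10 nuclear receptor genes was measured by RNA-seq in 3 replicates of E14, a line of mouse embryonic stem cells. The genes are Esrrb, Esrra, Nr5a2, Nr0b1, Nr6a1, Nr2f1, Nr2f2, Rara, Rarg and Rxra. They were chosen by symbol and matched to Ensembl gene IDs through GENCODE vM21, and all 10 were found among the 55487 genes of the tables. The cells carried no labelled genetic change or drug treatment beyond their culture in serum medium with LIF, a GSK inhibitor and a MEK1/2 inhibitor, which all 3 replicates shared. The series also maps R-loops with the MapR and BisMapR methods in further samples of the line, which are not analysed here. With 1 group, no difference between conditions could be tested, and the labels do not say whether the replicates came from separate cultures, so the spread between them may be technical.

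Nuclear receptors are transcription factors that bind short DNA half-sites through a pair of zinc fingers, and many are switched by a small lipid-soluble ligand. Several members are orphan receptors with no agreed natural ligand. In mouse embryonic stem cells Esrrb and Nr5a2 are known as activators of the naive pluripotency network, Nr0b1 as a partner that dampens other receptors, and Nr6a1 as a repressor of pluripotency genes during differentiation. The retinoic acid receptors bind DNA as heterodimers with retinoid X receptors.

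Replicates 1, 2 and 3 held 11420425, 6467405 and 5787357 estimated counts. A floor of 3 counts, the most that a count of 0 allows, was 0.263, 0.464 and 0.518 CPM (counts scaled to the library's total, not corrected for length), covering counting error only. TPM corrects for length as well and is used wherever genes are compared with each other. Genes with an effective length below 100 nt held 60.3%, 65.8% and 63.9% of all TPM in replicates 1, 2 and 3, which lowers the TPM of every other gene by the same factor within a replicate. Replicates 1 and 3 stood at opposite ends in TPM. Of 7875 protein-coding genes averaging 100 counts or more, 82.2% had their lowest TPM in replicate 3 and 90.2% their highest in replicate 1. All 9 stem cell markers exceeded a mean TPM of 1, from 16.1 for Tbx3 to 182.8 for Nanog. None of the endoderm (5), mesoderm (5) or trophoblast (4) markers reached it. The mesoderm marker Eomes came closest, at 0.97, 1.05 and 0.84 TPM in replicates 1, 2 and 3, and made up most of the mesoderm sum. In each replicate the summed TPM was at most 1.09 for endoderm, 1.24 for mesoderm and 0.31 for trophoblast, and Foxa2 had 0 counts. Of 5 neural markers, Tubb3 and Nes reached it, and of 5 fibroblast markers Thy1 did, while Col3a1 and Lum had 0 counts. Summed over the list, neural markers had 12.3 to 18.6 TPM and fibroblast markers 1.24 to 3.37 TPM. The part of such cells in the values below was not tested.

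The half-site AGGTCA is the core element bound by much of this family, so the sequences just before the members' starts were searched for it. The RefSeq promoter table (GRCm38.p6) gave 19 starts for the 10 genes, and the 250 bases before each were read on both strands (AGGTCA or TGACCT). A half-site was present in 5 of the 19 windows, belonging to 5 of the 10 genes, against 14.02% of all 32851 windows of that length. That share is of windows, and none was computed over genes. A gene with several windows has more chances of a match, and the first 2 Rara windows overlap for most of their length. A longer form, AAGGTCA or TGACCTT, which contains the half-site and resembles the site of the estrogen-related receptors, was in 2 of the 19, against 4.08% of all windows. A match is a description of the letters and not evidence of binding. The first Esrrb window, of the gene with the highest level, is shown beside the 5 windows with a half-site. Capitals mark the half-site, and each sequence reads 5′ to 3′ along the gene's strand and ends at the base before the start.
Esrrb (chr12:86360867-86361116, plus strand): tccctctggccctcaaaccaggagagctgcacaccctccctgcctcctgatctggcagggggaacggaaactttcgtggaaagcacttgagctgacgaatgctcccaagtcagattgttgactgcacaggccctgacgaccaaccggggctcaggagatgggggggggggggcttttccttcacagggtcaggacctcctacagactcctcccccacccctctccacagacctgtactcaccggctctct
Nr5a2 (chr1:136960449-136960698, minus strand): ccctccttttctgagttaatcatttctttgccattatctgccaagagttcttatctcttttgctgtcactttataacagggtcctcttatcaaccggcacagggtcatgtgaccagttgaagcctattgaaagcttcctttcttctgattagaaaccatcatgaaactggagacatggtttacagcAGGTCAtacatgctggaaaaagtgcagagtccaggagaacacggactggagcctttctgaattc
Nr0b1 (chrX:86191525-86191774, plus strand): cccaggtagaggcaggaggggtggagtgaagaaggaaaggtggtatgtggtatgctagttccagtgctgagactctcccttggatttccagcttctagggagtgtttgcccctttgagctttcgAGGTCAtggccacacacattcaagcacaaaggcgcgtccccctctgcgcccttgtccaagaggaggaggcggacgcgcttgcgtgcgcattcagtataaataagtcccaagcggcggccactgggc
Nr6a1 (chr2:38784516-38784765, minus strand): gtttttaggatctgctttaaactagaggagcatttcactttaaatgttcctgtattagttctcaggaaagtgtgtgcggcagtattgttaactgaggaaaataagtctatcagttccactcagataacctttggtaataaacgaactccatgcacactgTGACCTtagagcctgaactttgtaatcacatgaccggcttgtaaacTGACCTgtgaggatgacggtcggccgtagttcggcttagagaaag
Rarg (chr15:102257523-102257772, minus strand): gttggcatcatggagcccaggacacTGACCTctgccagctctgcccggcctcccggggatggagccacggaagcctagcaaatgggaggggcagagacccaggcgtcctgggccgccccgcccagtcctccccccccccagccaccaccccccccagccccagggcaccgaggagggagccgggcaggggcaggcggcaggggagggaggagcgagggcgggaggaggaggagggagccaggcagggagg
Rxra (chr2:27709042-27709291, plus strand): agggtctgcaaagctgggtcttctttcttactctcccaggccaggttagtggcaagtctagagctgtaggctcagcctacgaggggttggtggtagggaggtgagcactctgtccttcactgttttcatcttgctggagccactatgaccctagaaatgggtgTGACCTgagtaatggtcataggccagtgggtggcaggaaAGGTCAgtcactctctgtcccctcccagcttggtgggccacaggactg
The half-site began 64 bases before the start in Nr5a2, 126 in Nr0b1 and 225 in Rarg, where it lay on the opposite strand. The windows of Nr6a1 and Rxra are those of a second, internal start and held 2 half-sites each, beginning 91 and 45 bases before the start in Nr6a1 and 87 and 48 in Rxra. Neither Esrrb window held one, nor did those of Esrra, Rara, Nr2f1 and Nr2f2. The number of CG dinucleotides ran from 1 in the Nr2f2 window and the second Rxra window to 40 in the first Rxra window, around a median of 6 over all windows. The first Nr2f1 window and the Esrra window each had 22, although the levels of these genes differed as described below.

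Of the 10 receptors, 8 were expressed at a mean TPM of at least 1, a level reached by 44.2% of the 21897 protein-coding genes and 19.8% of all genes. The same 8 of 10 were counted without any one replicate. Since the genes were listed for their known roles in stem cells, the count is a description of the list. The median protein-coding gene had a mean of 0.463 TPM, and the median of those past 1 TPM was 5.73. By mean TPM the order was Esrrb, Nr5a2, Nr0b1, Nr6a1, Rara, Rarg, Esrra and Rxra, with Nr2f1 and Nr2f2 level at the bottom. Of the 9 pairs of neighbours in that order, 6 had overlapping TPM ranges and 5 stood in the same order in every replicate.

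**Figure D1:**
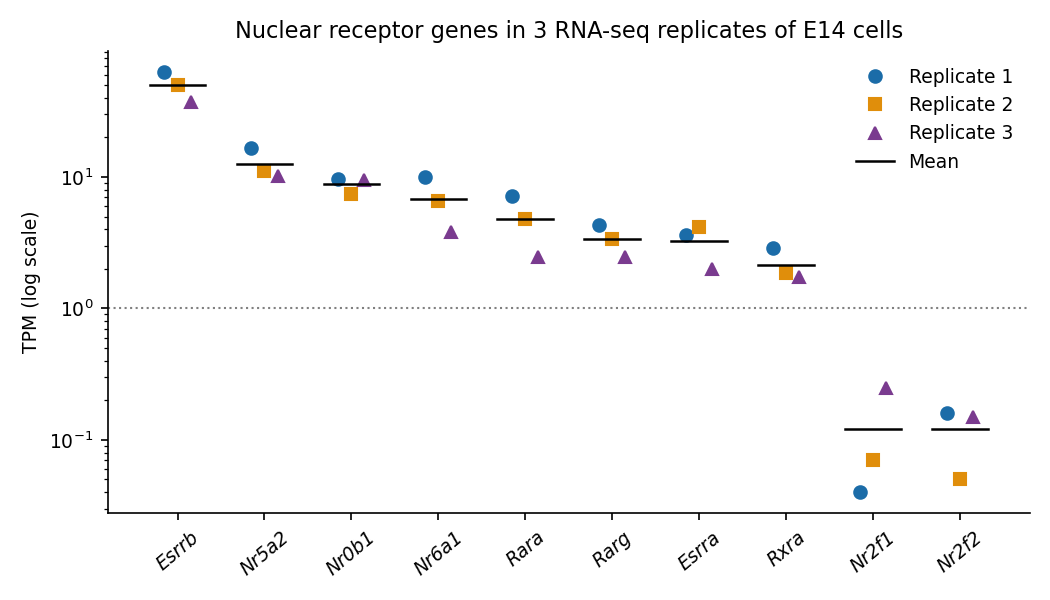
TPM (log scale) of each gene in replicates 1, 2 and 3 (points), with the mean (line) and a dotted line at 1 TPM. Esrrb lies apart at 37.3 to 63.2 TPM, 7 genes lie between 1.73 and 16.5, and Nr2f1 and Nr2f2 stay at or below 0.25.

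Esrrb, an orphan receptor of the naive network, had the highest level. The gene (ENSMUSG00000021255) lies on chromosome 12, 86361117 to 86521628, plus strand, in GRCm38. It had 5503, 3056 and 2198 estimated counts in replicates 1, 2 and 3, or 482, 473 and 380 CPM. Its TPM was 63.2, 50.03 and 37.3, a mean of 50.2 ± 13.0 (SD, n = 3), which ranked 504 among protein-coding genes. Replicate 1 was the high sample in TPM and replicate 3 the low one, while in CPM replicates 1 and 2 were close together. Among 9 other transcription factors of the naive network, 6 lay below Esrrb in every replicate (Sox2, Klf2, Tfcp2l1, Klf5, Klf4 and Tbx3). Nanog, Pou5f1 and Zfp42 lay above it in every replicate. By distance of log2(TPM + 1) over the 3 replicates, the protein-coding genes nearest to Esrrb were Cdc42, Usp7 and Suz12, at distances of 0.04, 0.04 and 0.10.

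Esrra, the paralog of Esrrb known for control of mitochondrial and metabolic genes, was far lower. It lies on chromosome 19, 6910977 to 6921813, minus strand (ENSMUSG00000024955). Its 160, 106 and 77 counts gave 3.64, 4.15 and 1.98 TPM, a mean of 3.26 ± 1.13 (SD, n = 3). Esrrb exceeded Esrra in every replicate with no overlap of the ranges. The log2 ratio of (TPM + 1) was 3.79, 3.31 and 3.68, a mean of 3.59 ± 0.25 (SD, n = 3), so the difference was larger than the spread between replicates. An exact two-sided sign-flip permutation test over 3 replicates cannot give a p below 0.25, so no p is given for these ratios. The last 73 bp of Esrra overlap Trmt112 on the opposite strand, which had 275, 133 and 112 counts. The strand setting of the counting is not given in the sources used here, so reads of that stretch cannot be told apart. The third paralog, Esrrg, had 0, 1 and 0 counts, under the floor.

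Nr5a2, also called Lrh1, is an orphan receptor that binds DNA as a monomer and can drive Pou5f1. It ranked after Esrrb among the 10 genes in every replicate. The gene (ENSMUSG00000026398) lies on chromosome 1, 136842571 to 136960448, minus strand. Its 1175, 554 and 457 counts gave 16.5, 11.2 and 10.3 TPM, a mean of 12.6 ± 3.37 (SD, n = 3). The log2 ratio of (TPM + 1) of Esrrb over Nr5a2 was 1.90 ± 0.15 (SD, n = 3), with every Esrrb value above every Nr5a2 value. Nr5a1, the other gene of its subfamily and best known from steroid-producing tissue, had 0 counts in every replicate.

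Nr0b1, also called Dax1, lacks the usual zinc fingers and acts by binding other receptors. It is an X-linked gene (ENSMUSG00000025056, chromosome X, 86191764 to 86195947, plus strand). It had 437, 233 and 301 counts, and 9.65, 7.39 and 9.47 TPM, a mean of 8.84 ± 1.26 (SD, n = 3). Its CPM was 38.3, 36.0 and 52.0, so replicate 3 was the high sample in CPM and replicate 2 the low sample in both units. Among the 8 expressed members it alone was above its own mean in replicate 3, in CPM and in TPM. Its relative Nr0b2, known as Shp, had 2, 1 and 0 counts, under the floor. The protein-coding genes nearest to Nr0b1 by the same distance were Iqcb1, Gtsf1l and Mrpl14, at 0.10, 0.12 and 0.13.

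Nr6a1, also called Gcnf, represses Pou5f1 when embryonic stem cells differentiate. The gene (ENSMUSG00000063972) lies on chromosome 2, 38723370 to 38927688, minus strand. Its 1145, 574 and 402 counts gave 10.1, 6.52 and 3.82 TPM, a mean of 6.80 ± 3.13 (SD, n = 3). The highest replicate was 2.64 times the lowest in TPM and 1.44 times in CPM. Nr0b1 and Nr6a1 changed places between replicates, since Nr6a1 was the higher in replicate 1 and Nr0b1 in the other two. Of 7 genes annotated inside Nr6a1, Gm44144 and Gm44146 lie on the same strand, with 43, 12 and 7 counts and 14, 2 and 5 counts. The antisense gene Nr6a1os had 1, 0 and 0 counts, under the floor, and the other 4 had 0.

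Rara and Rarg encode receptors for retinoic acid, the vitamin A derivative that drives stem cell differentiation, and both were expressed. Rara (ENSMUSG00000037992, chromosome 11, 98927818 to 98974942, plus strand) had 510, 242 and 125 counts. Its TPM was 7.14, 4.83 and 2.47, a mean of 4.81 ± 2.34 (SD, n = 3). Replicate 1 was highest and replicate 3 lowest, 2.89 times apart in TPM and 2.07 times in CPM. Rarg (ENSMUSG00000001288, chromosome 15, 102234938 to 102257517, minus strand) had 304, 169 and 124 counts, and 4.35, 3.38 and 2.47 TPM, a mean of 3.40 ± 0.94 (SD, n = 3). The genes had the same TPM in replicate 3, and Rara was the higher in the other two. The log2 ratio of (TPM + 1) of Rarg over Rara was -0.34 ± 0.31 (SD, n = 3), a difference about as large as its spread, and it was -0.51 without replicate 3 and -0.21 without replicate 1. The third retinoic acid receptor, Rarb, which is itself induced by retinoic acid, was lower, at 0.11 ± 0.07 TPM (SD, n = 3) from 6, 5 and 3 counts. Slc27a4, Mtfr2 and Bcar1 were the protein-coding genes nearest to Rarg, at distances of 0.03, 0.04 and 0.05.

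Rxra, the heterodimer partner of the retinoic acid receptors, had the lowest TPM of the 8 expressed members in every replicate. By CPM, which is not corrected for length, Esrra was lower in every replicate. Its CPM was 14.01, 16.4 and 13.3, against 19.5, 18.6 and 14.2 for Rxra. The gene (ENSMUSG00000015846) lies on chromosome 2, 27676440 to 27762957, plus strand. It had 223, 120 and 82 counts, and 2.86, 1.85 and 1.73 TPM, a mean of 2.15 ± 0.62 (SD, n = 3). Its paralog Rxrb was higher in every replicate, at 5.68, 4.50 and 3.46 TPM. The log2 ratio of (TPM + 1) of Rxrb over Rxra was 0.82 ± 0.12 (SD, n = 3) and the ranges did not overlap. Rxrg had 0 counts in every replicate.

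Nr2f1 and Nr2f2, the COUP transcription factors of neural, heart and vessel development, were at the limit of detection. Nr2f1 (ENSMUSG00000069171, chromosome 13, 78188973 to 78199757, minus strand) had 3, 2 and 4 counts, and 0.04, 0.07 and 0.25 TPM. Nr2f2 (ENSMUSG00000030551, chromosome 7, 70351944 to 70366735, minus strand) had 6, 3 and 3 counts, and 0.16, 0.05 and 0.15 TPM. Both had a mean of 0.12 TPM, with an SD of 0.114 for Nr2f1 and 0.061 for Nr2f2 (n = 3). The mean of Nr2f1 was 0.055 TPM without replicate 3, so that replicate decides it. At these counts the genes cannot be ordered, and the values do not show absence. In RNA from many cells, few cells with the transcript and little of it in each cell cannot be told apart. Nr2f1 overlaps A830082K12Rik on the opposite strand, with 4, 0 and 3 counts, and Nr2f2 overlaps B130024G19Rik, with 0 counts. The third gene of the subfamily, Nr2f6, was higher, at 5.30 ± 1.47 TPM (SD, n = 3).

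Whether any member varied between replicates more than genes of like abundance was asked with edgeR's goodness-of-fit test, fitted on 12577 genes. The expressed members all passed the filter on low counts, while Nr2f1 and Nr2f2 did not. At a Benjamini-Hochberg adjusted p under 0.05, 0 of the 8 were called, against 1.84% of all genes tested. At an unadjusted p under 0.05 the number was 1 of 8, against 6.96% of all genes, and the same counts were obtained with DESeq2 size factors. That gene was Rara, with an adjusted p of 0.632 by edgeR, and without replicate 1 or without replicate 3 it no longer passed the unadjusted threshold, which left 0 of 8, as did a common dispersion in place of the trended one. Nr0b1 followed, with an adjusted p of 0.765 by edgeR. The other 6 had an adjusted p of 1 by edgeR. On simulated data, the test recovered 5 of 50 genes changed 2-fold in 1 replicate, and 48 of 50 changed 4-fold. The widest span in CPM among the 8 members was 2.07 times, in Rara, so changes of their size were mostly out of its reach. With 3 replicates of 1 group, a missed threshold does not show that a level was the same in all.

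The direction of the spread was shared with most genes of the libraries. Of the 8 expressed members, 7 had their lowest TPM in replicate 3 and 7 their highest in replicate 1, which are also the common positions given above for protein-coding genes. The exceptions were Nr0b1, lowest in replicate 2, and Esrra, highest in replicate 2. In CPM, 1 of the 8 was above its own mean in replicate 3, against 27.7% of the 7875 protein-coding genes. The deviation in replicate 3 also differed with gene length. When these protein-coding genes were divided into deciles by length, the median deviation of log2 CPM there was 0.07 for the shortest and -0.28 for the longest. Esrrb deviated by -0.22 in replicate 3, where genes of its length decile had a median of -0.19. Nr5a2, Rarg, Rxra, Nr6a1 and Esrra also lay between the 10 and 90 percentiles of their deciles there. Rara deviated by -0.61, lower than all but 3.94% of the genes of its decile, whose median was -0.14. Nr0b1 deviated by 0.32, above 99.4% of the genes of its decile, whose median was -0.09. These percentages are a description across genes, which do not count as replicates, and what sets Rara and Nr0b1 apart was not tested.

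**Figure D2:**
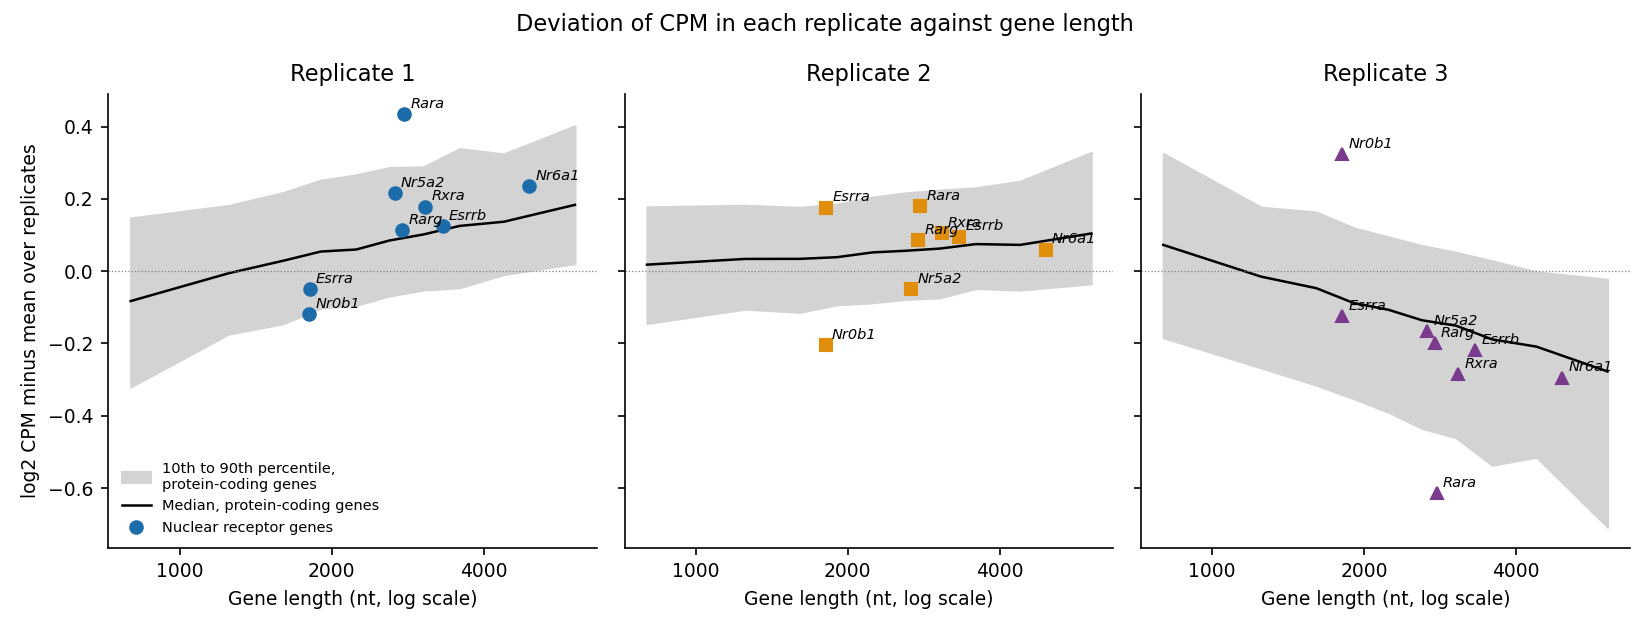
Log2 CPM of the 8 expressed receptor genes minus their mean over replicates (points), against gene length (nt, log scale), in each replicate; the line and grey band are the median and the 10 to 90 percentile range of protein-coding genes by length decile. In replicate 3 Nr0b1 (0.32) lies above the band and Rara (-0.61) below it, and the other 6 genes lie inside.

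The length assigned to a gene also enters its TPM, and it moved with or against the TPM in different members. The length column averages a gene's transcripts by their estimated shares, and it differed between replicates for every member except Nr0b1, which has 1 listed transcript. Esrra, with 6 listed transcripts, had a length of 1760, 1492 and 2182 nt in replicates 1, 2 and 3. Its CPM, at 14.01, 16.4 and 13.3, spanned 1.23 times from lowest to highest, while its TPM spanned 2.10 times. The replicate with the longest assigned length was thus the one with the lowest TPM. Nr6a1, with 11 listed transcripts of 238 to 6334 nt, had lengths of 4329, 4784 and 5682 nt, against a CPM of 100.3, 88.8 and 69.5, so its longest length and lowest CPM were both in replicate 3. Rxra, with 8 listed transcripts, had lengths of 3013, 3555 and 2634 nt, and Nr5a2, with 6, had 2766, 2759 and 2482 nt. Both had their shortest length and their lowest TPM in replicate 3, the opposite of Esrra and Nr6a1. Esrrb (3350, 3364 and 3242 nt) and Rara (2771, 2785 and 2799 nt) hardly differed between replicates, while their TPM spanned 1.70 and 2.89 times. Rarg had lengths of 2713, 2780 and 2778 nt, near the 2718 nt of the transcript that begins at the internal start and below the 2953 nt of the longest one, though a mean length can be reached by different mixtures. The lengths of Nr2f1 (3207, 1555 and 991 nt) and Nr2f2 (1521, 3179 and 1184 nt) rest on 2 to 6 counts and carry no information on isoforms.

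**Figure D3:**
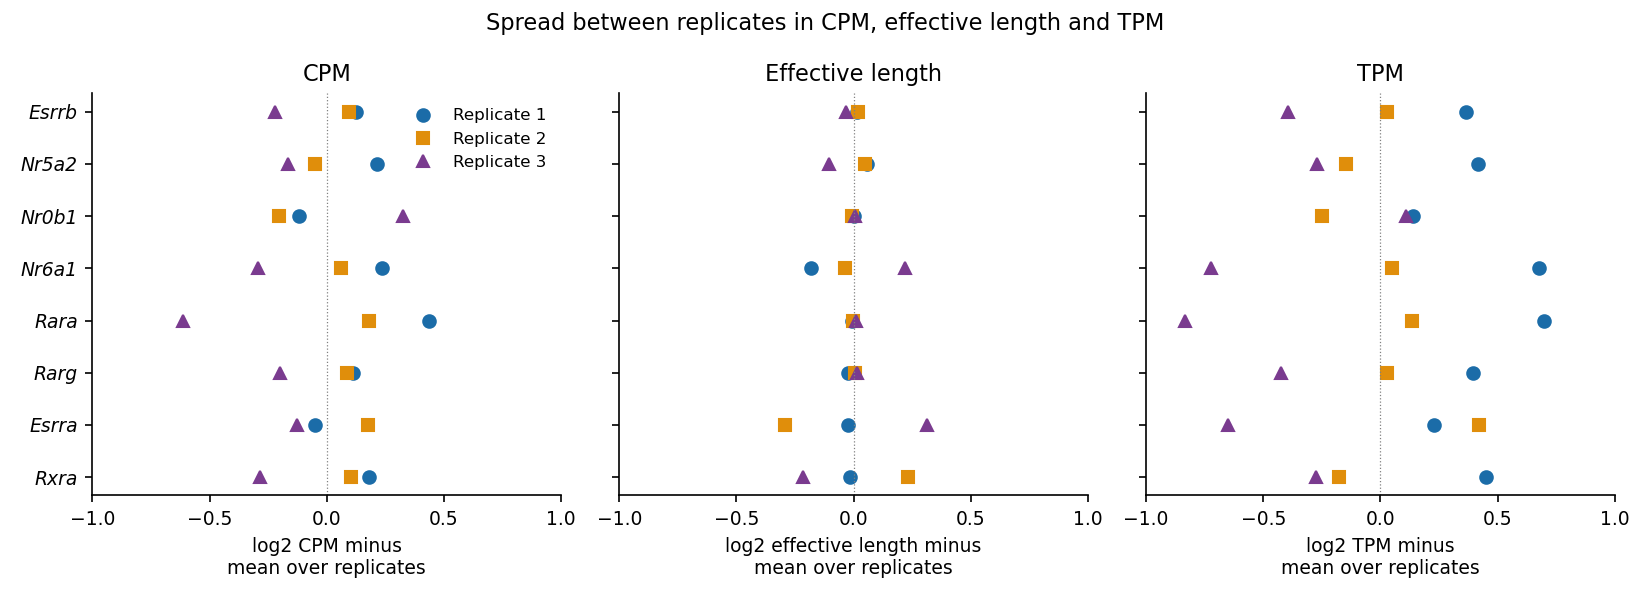
Deviation of log2 CPM, log2 effective length and log2 TPM from the gene's mean over replicates, for the 8 expressed receptor genes (rows) in replicates 1, 2 and 3 (symbols). Esrra spans little in CPM (-0.13 to 0.18) and more in TPM (-0.65 to 0.42), with its effective length ranging from -0.29 to 0.31.

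The remaining nuclear receptors place these genes within their family. Of the 39 others, 9 reached a mean TPM of 1, beside 44.2% of protein-coding genes. The median of the 39 was 0.08 TPM. The highest was Nr1h2, the oxysterol receptor LXR beta, at 11.1 ± 2.98 TPM (SD, n = 3), above Nr0b1 and below Nr5a2 by mean. Nr2c2, an orphan receptor also called Tr4, had 7.05 ± 2.17 TPM (SD, n = 3). Nr2f6, Rxrb, Nr4a1, Nr1d2, Ppard, Thra and Nr3c1 had means from 1.22 to 5.30 TPM. Pparg, Nr1h5, Hnf4g, Rxrg, Nr2e1 and Nr5a1 had 0 counts in every replicate, and 16 of the 39 were at or under the floor of 3 counts in every replicate. Esrrb alone held 37.1% ± 1.52 (SD, n = 3) of the summed TPM of the 49 genes, and the 10 genes together 68.3% ± 1.03 (SD, n = 3). By CPM of at least 1, which is not corrected for length, the number of others was 15 rather than 9. By TPM with genes below 100 nt of effective length left out of the denominator, which raises the TPM of every other gene, it was 12. The share of protein-coding genes was not computed for either setting. Why the count differed by CPM was not tested.

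**Figure D4:**
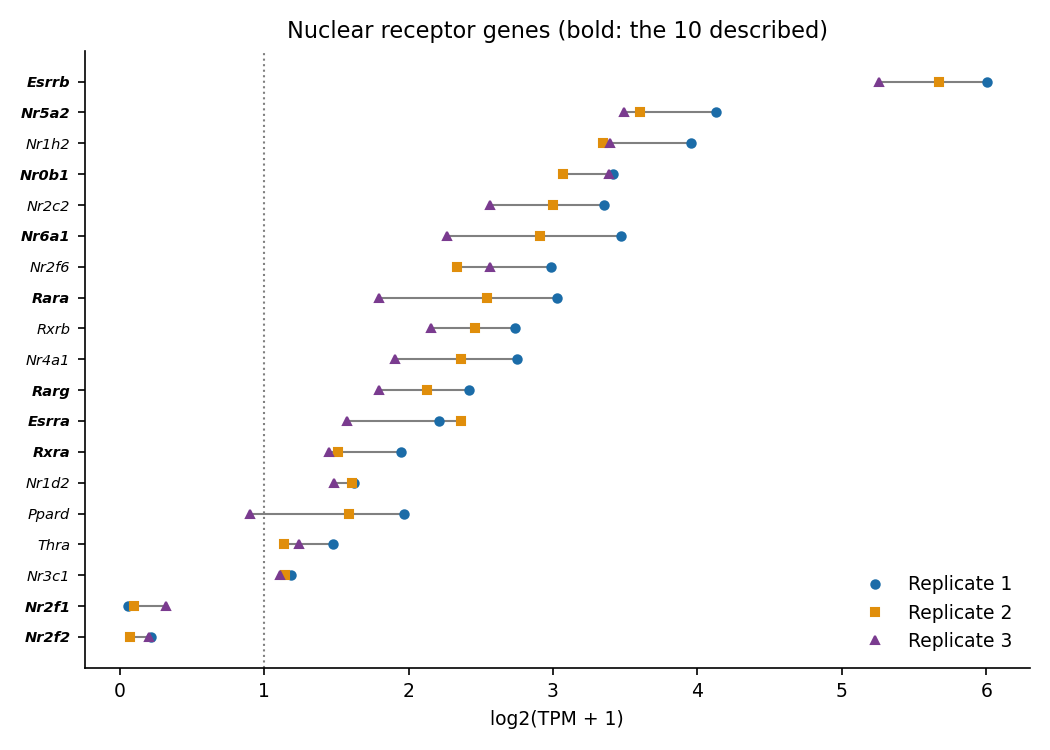
Log2(TPM + 1) of the 17 nuclear receptor genes at a mean TPM of at least 1, and of Nr2f1 and Nr2f2, in replicates 1, 2 and 3 (points, joined by a line), ordered by mean TPM, with a dotted line at 1 TPM. Esrrb stands alone at the top, and Nr2f1 and Nr2f2 lie near 0.

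Nuclear receptors act through coactivators, which acetylate or methylate chromatin or bridge to the polymerase, and corepressors, which recruit deacetylases. Of 10 coactivator genes, 8 reached a mean TPM of 1, beside 44.2% of protein-coding genes. The number was 9 by CPM of at least 1, or with genes below 100 nt left out of the TPM denominator. The share of protein-coding genes was not computed for either setting. Ep300, a histone acetyltransferase, had 14.2 ± 8.50 TPM (SD, n = 3), Carm1, an arginine methyltransferase, 14.01 ± 4.89 and Med1, the Mediator subunit that contacts receptors, 10.5 ± 3.09. Ncoa3, a coactivator known to work with Esrrb in stem cells, had 13.5, 9.88 and 6.40 TPM, the highest of the p160 genes Ncoa1, Ncoa2 and Ncoa3 in every replicate. The 2 below the threshold were Ppargc1b, at 0.407 ± 0.215 TPM (SD, n = 3), and Ppargc1a, a coactivator of estrogen-related receptors in muscle and brown fat, with 0 counts in every replicate. All 8 corepressor genes reached a mean TPM of 1, beside the same 44.2%. Ncor1, a scaffold of the deacetylase complex, was highest at 54.3 ± 15.0 TPM (SD, n = 3), followed by Tbl1xr1 at 31.8 ± 4.62 and the deacetylase Hdac3 at 15.8 ± 5.01. Nrip1, a corepressor that binds receptors carrying their ligand, was lowest at 2.35 ± 0.564 TPM (SD, n = 3).

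Of 15 genes that make, carry or remove retinoic acid, 4 reached a mean TPM of 1, beside 44.2% of protein-coding genes, and 7 of the 15 reached a CPM of 1. The share of protein-coding genes at a CPM of 1 was not computed. The 4 passing by TPM included the carriers Crabp1, at 5.83 ± 2.14 TPM (SD, n = 3), Fabp5 at 4.24 ± 0.959 and Crabp2 at 1.28 ± 0.458. The other was the retinal reductase Dhrs3 at 2.07 ± 0.696. Rbp4, Rdh10 and Aldh1a3 passed by CPM only, at means of 1.44, 3.20 and 1.11. The retinaldehyde dehydrogenases that make retinoic acid were low: Aldh1a1 had 0 counts, Aldh1a2 had 12, 3 and 2 counts, and Aldh1a3 had 5, 12 and 6. Cyp26a1, which degrades retinoic acid and is induced by it, had 4, 2 and 0 counts. Among 6 genes known to respond to retinoic acid, 3 reached a mean TPM of 1, near the 44.2% of protein-coding genes. Without replicate 1 there were 2. Stra8, a germ cell gene, had 3.95, 3.50 and 2.91 TPM, and Dhrs3 had 2.78, 2.03 and 1.39. Rarb and Cyp26a1 were below the threshold, as was Hoxb1, with 0 counts in every replicate.

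**Figure D5:**
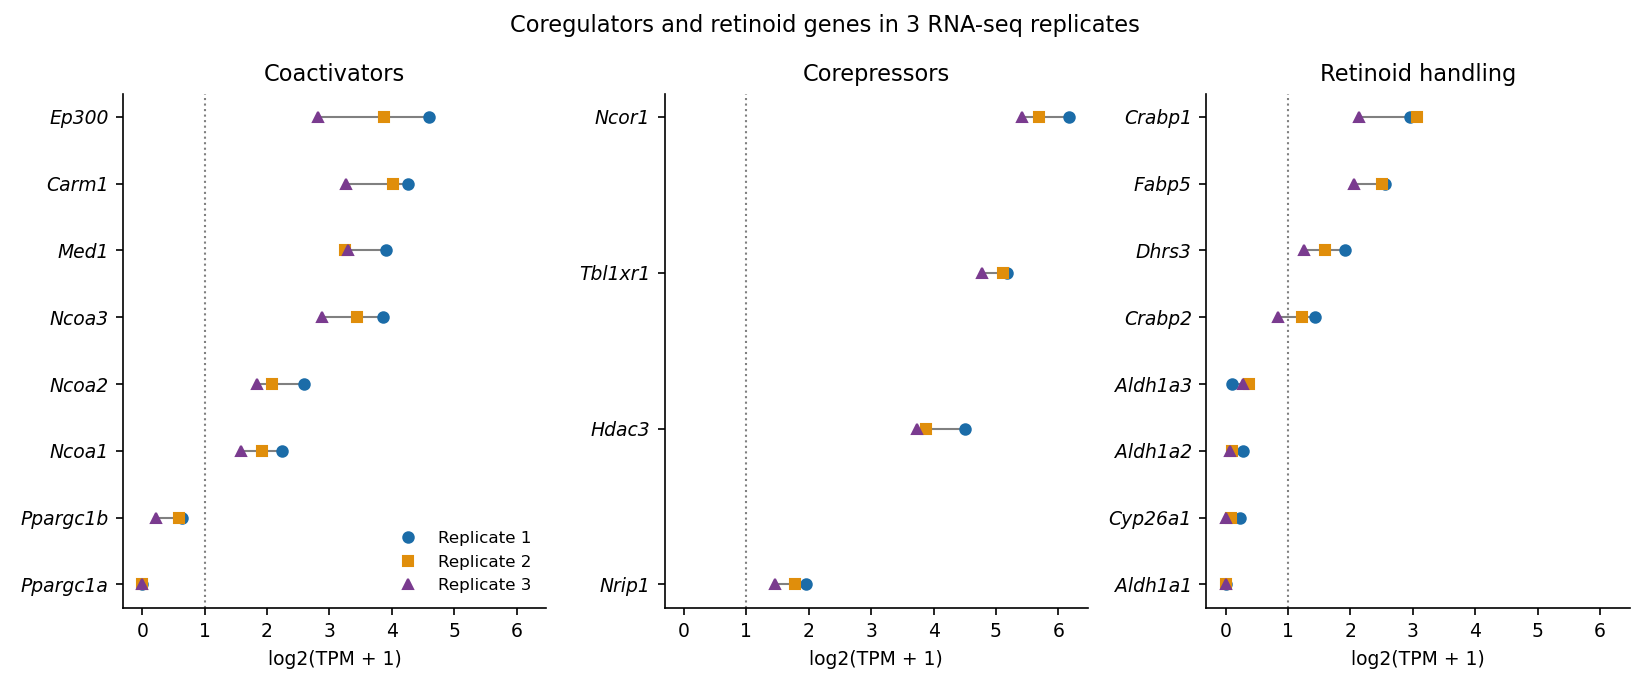
Log2(TPM + 1) of the coactivator, corepressor and retinoid handling genes named in the text, except Rbp4 and Rdh10. Points are replicates 1, 2 and 3, genes are ordered by mean TPM within each list, and a dotted line marks 1 TPM. The corepressors shown lie to the right of the line, and Ppargc1a and Aldh1a1 lie at 0.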

How the data were processed

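Gene expression was measured by RNA-seq of E14 cells in 3 replicates, grouped and numbered by their titles. Per the labels' protocols, directional libraries were made from total RNA after removal of ribosomal RNA. Per the submitters' processing notes, STAR, RSEM and the build mm10 were used, without versions or roles; the annotation release and strand setting are not given in the sources used here. Per the file headers, the authors deposited an estimated count (expected count) per gene, without normalization, and TPM, scaled by effective length. The deposited FPKM was not used. Length and effective length in nt are in the same tables.

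The members and gene lists were chosen with earlier results of these data known, as were the tests and the rule for naming genes. The rule names the members, list genes that were highest, lowest or at 0, expressed receptors, genes that overlap a member and the 3 nearest genes. Other family genes, and list genes named beside these, were chosen after their values were seen.

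CPM was computed from estimated counts. IDs were matched to GENCODE vM21 (GRCm38): 55141 of 55487 matched. Mean ± SD is over replicates, with a pseudocount of 1 on log scales. For edgeR 4.0.16 (R 4.3.3) counts were rounded. The goodness-of-fit test used TMM, filterByExpr, an intercept and the trended dispersion. It was tested on simulated data. Alternatives changed the unit, threshold, pseudocount, denominator, normalization (DESeq2 1.42.0), filter, dispersion and replicates. A planned comparison of the members' proteins was not run, as no protein sequences were used here. Some list genes are not reported here. Python 3.11.15 was used.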

Additional observations from a re-analysis of the deposited data

How the results depend on the processing

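The 21 results were recomputed under 113 alternatives: 93 were labelled the same, 20 moved and 0 reversed. A level or ratio was the same if it moved by less than its SD over replicates. Leaving out 1 of 3 replicates cannot move a mean that far, so those labels were fixed in advance. Counts were compared by a fixed fold instead, and only ratios larger than their SD could be labelled reversed. The tally therefore says little about how firm the results are. Removing the genes below 100 nt of effective length from the TPM denominator raised every other gene 2.52, 2.93 and 2.77 times in replicates 1, 2 and 3. The median member went from 4.24 to 11.5 TPM, and the level of every member moved with it. At a mean TPM of at least 5, the counts fell to 4 for the members, 3 for other receptors, 5 for corepressors, 1 for retinoid handling genes and 0 for retinoic acid targets. By CPM of at least 1 they rose to 15 for other receptors and 7 for retinoid handling genes. A higher threshold can only lower a count, and why the counts rose by CPM was not tested. The share of protein-coding genes was computed only at a mean TPM of at least 1 over all 3 replicates, so the other counts have no share beside them. The log2 ratio of Esrrb over Esrra was 3.94 with a pseudocount of 0.1 and 4.84 by CPM, where the difference in length is not removed. Without replicate 3, 11 rather than 9 other receptors reached a mean TPM of 1.

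No member was called as varying by edgeR under any of the 6 alternatives of that test. In its main setting the test missed most simulated 2-fold changes. Over all genes, 232 were called by edgeR with every replicate and 63 to 93 with 1 left out. Depth limits Nr2f1 and Nr2f2, at 2 to 6 counts. No paired analysis was possible because the tables analysed are of 1 group, so replicate numbers pair nothing here.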

Other observations

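Receptors for steroid hormones formed a mostly low group in these cells. They were put together after their values were seen. Nr3c1, the glucocorticoid receptor, had 1.28, 1.21 and 1.16 TPM. Its CPM spread more, at 13.7, 17.8 and 12.8, and its assigned length was 4647, 5163 and 3488 nt in the same replicates. Nr3c2, the mineralocorticoid receptor, had 0.48, 0.34 and 0.28 TPM. The progesterone receptor Pgr had 15, 8 and 4 counts. The estrogen receptors Esr1 and Esr2 had at most 2 counts in any replicate, under the floor of 3. The estrogen-related Esrrb, which does not bind estrogen despite its name, had 2198 counts or more.

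The receptors of the circadian clock, also grouped after their values were seen, were low but detected. Nr1d2 had 2.08, 2.05 and 1.80 TPM, Nr1d1 had 1.31, 0.76 and 0.31, and Rora had 0.57, 0.44 and 0.44. Nr1d1 and Nr1d2, which repress the same clock genes, differed in spread. Nr1d1 had an SD of 0.501 TPM around a mean of 0.793, and Nr1d2 an SD of 0.154 around 1.98 (n = 3). That difference was not tested.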
